A study of Mus musculus with 61 samples.

Results

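Stembryos, also called gastruloids, are aggregates of mouse embryonic stem (mES) cells that elongate in culture after a pulse of a Wnt agonist and form tissues of the posterior trunk. RNA-seq libraries of pooled stembryos from Del(CBS1-5) cells, which lack the CTCF-binding sites CBS1 to CBS5 of the HoxD cluster, were compared with wild type of the same stage, and only genes outside HoxD are described. Taken by genotype and stage in the titles, 16 of the 61 libraries of the series were compared, namely 6 of Del(CBS1-5), with 2 per stage (96 h, 120 h or 144 h), and 10 of wild type. The controls were wild-type replicates 1 to 3 at 96 h and at 120 h, and 4 libraries at 144 h, of which 2 stood outside the wild-type time course and 2 belonged to it. All stembryos had received the same Wnt agonist pulse, and at 120 h and 144 h those that elongated had been collected.

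The Del(CBS1-5) cells were derived from blastocysts of mutant mice kept by back-crossing to BL6 × CBA hybrids, as were the Del(sub-TAD1) cells of the same series, whereas wild type and the other mutants are given as EmbryoMax mES cells, a commercial line of another mouse strain. By these sources the deletion and the origin of the line cannot be told apart in a comparison of Del(CBS1-5) with wild type. The origin of wild-type replicate 3 is in doubt, since its libraries held a set of transcripts, described below, at the level of the blastocyst-derived lines. Another transcript, A230056P14Rik, set replicate 3 apart from those lines. The deleted elements are noncoding, so that RNA does not check the deletion. The study's methods speak of biological replicates and independent samples. No source used here says that replicates were separate derivations of the line, and p-values measure the spread between libraries, which may be technical. The question was which genes differed at every stage and which differed at some stages. The cause of either pattern was not tested.

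mES cells express a network of pluripotency factors, among them Nanog, Pou5f1 and Sox2, which is shut down as stembryos leave the pluripotent state. Dppa3, Dppa5a, Dnmt3l and the piRNA and meiosis genes are typical of early embryo and germ-line cells and are kept silent in somatic tissue largely by DNA methylation of their promoters. The posterior end of the stembryo holds neuro-mesodermal progenitors, which co-express T, Sox2 and Cdx2, and which feed the presomitic mesoderm, marked by Tbx6 and Msgn1, and the spinal cord, marked by factors such as Nkx6-1 and Olig2.

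Values are FPKM, fragments scaled to the length of the transcript in kilobases and to the mapped fragments of the library. Differences are Del(CBS1-5) minus wild type on log2(FPKM + 0.1), fitted with limma over all 61 libraries, and a gene is said to be higher, lower or called where its p-value, adjusted by Benjamini-Hochberg over 15818 genes, was under 0.05. In each list of values below, the 2 Del(CBS1-5) replicates stand in order, the controls at 96 h and 120 h are replicates 1, 2 and 3, and the 4 controls at 144 h are the 2 outside the time course followed by the 2 of the time course. A gene at 0 is described as listed at 0, because cufflinks also wrote 0 for genes that other libraries of the same condition held at high levels. Depth, inferred from the steps of 1 fragment in low values, was 22.55 M to 27.5 M (mega) fragments at 96 h and 120 h and 15.1 M to 25.35 M at 144 h. The libraries at 96 h and 120 h differed from those at 144 h in how often values fell on whole fragments (75.7% to 78.8% against 96.0% to 97.8% of low values, with a tolerance of 0.02), so that a change of the mutant difference between 120 h and 144 h cannot be told apart from this library property where it bears on a gene.

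Wild-type replicate 3 at 96 h and 120 h stood apart from replicates 1 and 2 and lay nearer the mutants. The median absolute log2 difference across genes was 0.199 to 0.208 between replicate 3 and the other wild-type replicates at 96 h, against 0.145 between replicate 3 and either mutant library and 0.079 between wild-type replicates 1 and 2. At 120 h these values were 0.18 to 0.184, 0.125 to 0.143 and 0.077. The 4 controls at 144 h fell into their own pairs, with 0.273 to 0.288 between the pairs, as much as between Del(CBS1-5) and the pair outside the time course (0.27 to 0.288). Counts are therefore also given without wild-type replicate 3 or with 1 pair of controls at 144 h.

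At every stage 4 noncoding transcripts separated the lines. Gm5948 (chr10:16768940-16769778, mm10), Gm18363 (chr13:19525987-19526716), A930005H10Rik (chr3:115881581-115888130) and Gm35082 (chr7:100675088-100677760) were listed at 0 in all 6 Del(CBS1-5) libraries, in all 5 Del(sub-TAD1) libraries and in wild-type replicates 3 and 4 at 96 h and 120 h, and above 0 in the other 46 libraries of the series. Gm5948 and Gm18363 are annotated as processed pseudogenes on the plus strand, A930005H10Rik as a processed transcript on the minus strand and Gm35082 as a lincRNA on the plus strand. Gm18363 was at 12.4, 11.1 and 0 FPKM in wild type at 96 h, 5.5, 5.75 and 0 at 120 h and 4.72, 6.22, 2.54 and 2.47 at 144 h, with the 0 of each series in replicate 3. A930005H10Rik was at 9.88, 10.8 and 0, 10.9, 11.1 and 0 and 12.5, 12.8, 25.8 and 17.4 at the same stages, highest in the time course at 144 h. Gm35082 stayed between 6.29 and 9.9 FPKM in the wild-type libraries other than replicate 3, and Gm5948 between 2.61 and 5.25. Gm8199, a processed pseudogene on chromosome X, had the same distribution, with 0 to 0.146 FPKM in Del(CBS1-5), 0.0092 and 0.0561 in wild-type replicate 3 and 7.6 to 13.1 in the remaining controls. By these transcripts the libraries labelled wild-type replicate 3 and replicate 4 sorted with the 2 blastocyst-derived lines. By A230056P14Rik, described below, they did not. The labels of those libraries give the genotype and cell type in the same words as those of the other wild-type libraries.

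**Figure D1:**
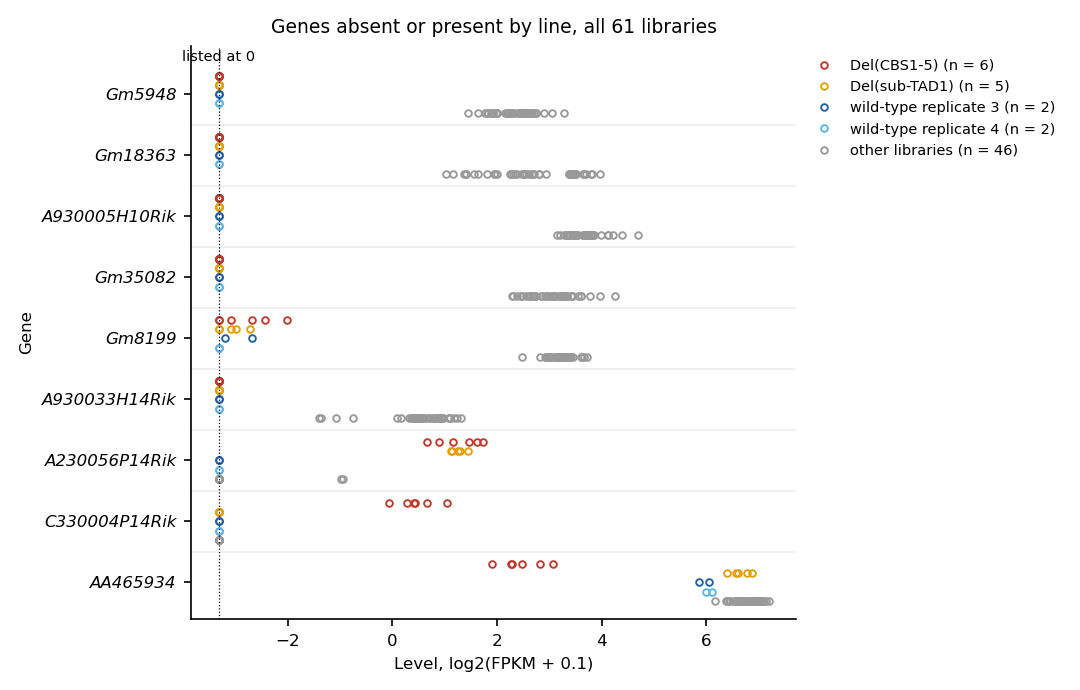
Level of 9 transcripts in all 61 libraries. The x axis is log2(FPKM + 0.1), each point is 1 library, the rows of a panel are Del(CBS1-5) (6 libraries), Del(sub-TAD1) (5), wild-type replicates 3 and 4 (2 each) and the other 46 libraries, and the dotted line marks genes listed at 0. Gm5948, Gm18363, A930005H10Rik and Gm35082 sit on the dotted line in the first 4 rows and to the right of it in the last, whereas AA465934 is low in Del(CBS1-5) alone.

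These 4 transcripts belong to 14 genes that stayed at or under 0.1 FPKM in every Del(CBS1-5) library and had a wild-type mean of at least 1 FPKM at each of the 3 stages. All 14 were all-or-none, which here means listed at 0 in 1 library and at 1 FPKM or more in another of the same genotype and stage, or at 0 in some libraries and never between 0 and 1 FPKM. They held 4 snoRNA, 1 snRNA and 1 miRNA gene. Protein-coding members were Ddb2, a DNA damage sensor of nucleotide excision repair, and Tirap, an adaptor of Toll-like receptors. Tirap was at 4.54, 4.51 and 0 FPKM in wild type at 96 h, 4.81, 4.82 and 0 at 120 h and 5.29, 5.58, 6.3 and 6.21 at 144 h, and was again listed at 0 in replicate 3. Ddb2 was listed at 0 in the mutants and also in 22 of the 38 libraries of EmbryoMax lines and time course that were not controls, so its 0 was not particular to Del(CBS1-5). Snord104, Gm12940, Gm22951, Gm26205 and Snora17, also among the 8 highest of the class in wild type, were at or under 0.1 FPKM in 13 to 30 of the 38. Tirap was at or under 0.1 FPKM in 4 of the 38 and in 4 of the 5 Del(sub-TAD1) libraries, but in no library of wild-type replicate 4. Those 38 libraries held no 0 for Gm5948, Gm18363, A930005H10Rik or Gm35082.

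Fewer genes were expressed in Del(CBS1-5) and low in wild type throughout, namely Elf3, Exoc3l, A230056P14Rik and C330004P14Rik. C330004P14Rik, a lincRNA at chr10:15791777-15807065, was at 1.25 and 1.11 FPKM at 96 h, 0.851 and 1.24 at 120 h and 1.95 and 1.48 at 144 h in the mutants and listed at 0 in all 55 other libraries. A230056P14Rik (chr7:55962531-55980868) was at 1.48 to 3.23 in Del(CBS1-5) and 2.07 to 2.61 in Del(sub-TAD1), listed at 0 in the controls, and at 0.406 and 0.419 in the Del(CBS1-2) libraries at 120 h. It was shared by the 2 blastocyst-derived lines, and was at or under 0.1 FPKM in all libraries of wild-type replicates 3 and 4. C330004P14Rik was read in 1 of those lines. Elf3, an epithelial transcription factor, was at 3.62 and 3.72 FPKM at 96 h, 5.58 and 4.83 at 120 h and 14 and 12.9 at 144 h and listed at 0 in the controls, but single libraries of Del(sub-TAD1) and of the time course held 5.66, 6.17 and 7.93, so it was all-or-none as well.

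AA465934 (chr11:83291699-83294632, plus strand, a processed transcript) had the largest difference among the constant lower genes, defined below, that were not all-or-none. It was at 5.5 and 8.32 FPKM at 96 h, 4.8 and 3.66 at 120 h and 4.72 and 6.96 at 144 h in the mutants and at 87.4, 96.9 and 66.5 at 96 h, 133, 115 and 58.2 at 120 h and 131, 142, 112 and 111 at 144 h in wild type, with log2 differences of -3.59 ± 0.22, -4.49 ± 0.22 and -4.40 ± 0.21 (SE) and adjusted p-values of 3.96e-14, 6.41e-17 and 3.78e-18 (limma). All 55 other libraries, Del(sub-TAD1) included at 84.5 to 117, lay above the 6 mutant libraries. Lower than in every other library were also Supt16, a subunit of the FACT histone chaperone, at 84.2 to 109.6 against 113 to 167, Ncapd2, a condensin subunit, at 51.1 to 66.8 against 74.2 to 142, and Traip, a ubiquitin ligase of replication stress, at 8.01 to 9.51 against 9.96 to 23.8. In all, 9 of the 15818 genes (0.0569%) were lower in the 6 mutants than in the 55 other libraries and 95 (0.601%) were higher, counts read after the data had been seen.

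At 96 h, 1657 genes were higher and 837 lower in Del(CBS1-5) (10.5% and 5.29% of genes tested). At 120 h, 1067 were higher and 676 lower (6.75% and 4.27%), and at 144 h 3588 and 2022 (22.7% and 12.8%). Without wild-type replicate 3 the counts were 2733 and 1355 at 96 h and 2019 and 1441 at 120 h, including 1631 and 789, and 1050 and 659, of the genes called with it. Other choices lowered them. Without wild-type replicate 1 of the stage the counts were 769 and 367 at 96 h and 426 and 223 at 120 h, without mutant replicate 1 of the stage 651 and 291 and 368 and 141, and with the 16 libraries alone in the fit 325 and 175 at 96 h, 243 and 157 at 120 h and 2594 and 1421 at 144 h. The share of called genes that were higher was 66.4%, 61.2% and 64.0% at the 3 stages, and 48.2%, 43.9% and 48.5% after quantile normalization (1651 higher and 1773 lower, 1165 and 1490, and 2679 and 2847). After upper-quartile scaling it was 56.0% at 96 h, with 1406 genes higher and 1106 lower. The excess of higher over lower genes thus depended on how libraries were scaled. Both mutants lay above all controls of their stage in 25.7%, 24.2% and 26.7% of the genes tested at the 3 stages, and below them in 19.6%, 20.1% and 16%.

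Of the genes tested, 528 (3.34%) were higher at all 3 stages and 152 (0.961%) lower at all 3. No difference between stages was called for 414 of the former (2.62%) and 122 of the latter (0.771%), and these are termed constant. The term means that no change between stages was called, not that the difference was equal at the 3 stages. The mutant difference changed between 96 h and 120 h in 39 genes, 19 upward (0.12%) and 20 downward (0.126%), between 120 h and 144 h in 1725, 1165 upward (7.37%) and 560 downward (3.54%), and between 96 h and 144 h in 2574, 1444 upward (9.13%) and 1130 downward (7.14%). Stage dependence was called in at least 1 of these contrasts for 3079 genes (19.5%). The same libraries of a stage enter 2 contrasts each. Without wild-type replicate 3 the constant classes held 737 and 258 genes, of which 373 and 105 were shared, and 385 genes changed between 96 h and 120 h. With the 16 libraries alone in the fit they held 52 and 21 genes, and with 1 library left out at a time 109 to 606 and 34 to 195.

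Most genes of naive pluripotency were higher in Del(CBS1-5) at each stage. Of 14 tested genes of naive pluripotency, the state of the early epiblast, 12 were higher at 96 h, 11 at 120 h and 13 at 144 h, with median log2 differences of 3.05, 2.54 and 3.21 beside 0.03, 0.01 and 0.05 over all genes. Klf4 was lower at 144 h. Without wild-type replicate 3, 12, 13 and 13 of the 14 were higher. With time-course controls at all stages 12, 13 and 11 were higher and none, 1 and 1 lower. With these controls 4376 of the 15818 genes tested were higher and 4063 lower at 96 h, and 3957 and 4290 at 120 h. At 144 h 4115 were higher and 2745 lower, and list counts with time-course controls are to be read beside these. Of 12 tested genes of general and primed pluripotency, 4, 7 and 10 were higher and none lower (6 and 8 at 96 h and 120 h without that replicate).

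Dppa5a, an RNA-binding protein of pluripotent cells, was at 506 and 498 FPKM at 96 h, 461 and 526 at 120 h and 597 and 514 at 144 h in Del(CBS1-5). Wild type was at 19.4, 20.5 and 225 at 96 h, 27.3, 26.9 and 239 at 120 h and 3.37, 6.11, 73.1 and 65.4 at 144 h. Wild-type replicate 3 lay well above its fellow replicates and still below the mutants, and the groups did not overlap. The log2 differences were 3.48 ± 0.96, 3.13 ± 0.96 and 4.95 ± 0.91 (SE), with adjusted p = 0.0118, 0.0307 and 5.45e-05. In the Del(sub-TAD1) libraries, 3 at 96 h and 2 at 120 h, Dppa5a was at 41.5, 207, 257, 21.8 and 24.9, a spread that ran from the level of wild-type replicates 1 and 2 to that of replicate 3.

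Dppa3, a maternal factor that protects DNA methylation patterns in the zygote, was at 22.9 and 24 FPKM at 96 h, 17.5 and 20.2 at 120 h and 36.2 and 36.4 at 144 h in the mutants. In wild type it was at 0.12, 0 and 8.35 at 96 h, 0.466, 0.0609 and 7.46 at 120 h and 0.224, 0.208, 0.218 and 0.597 at 144 h, at or near the bottom of the scale but for replicate 3. Nanog, a core transcription factor of naive cells, was at 29.5 and 29.8 at 96 h, 20.1 and 22.1 at 120 h and 35.4 and 30.4 at 144 h in the mutants against 1.33, 1.53 and 11.9 at 96 h, 1.75, 1.51 and 11.5 at 120 h and 0.192, 0.38, 4.18 and 4.71 at 144 h, with log2 differences of 3.29 ± 0.90, 2.70 ± 0.90 and 4.66 ± 0.85 (SE) and adjusted p = 0.011, 0.0473 and 5.11e-05. Mutant and control values of both genes overlapped at no stage, and the lowest Nanog values were those of the 144 h controls outside the time course.

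Pou5f1 (Oct4), which is needed in both naive and primed cells, had its lowest control values and its highest mutant values at 144 h. It was at 162 and 167 FPKM at 96 h, 96.1 and 109 at 120 h and 199.9 and 207 at 144 h in Del(CBS1-5) against 27.2, 28.7 and 80.9 at 96 h, 4.92, 4.95 and 58.6 at 120 h and 1.25, 3.3, 23.8 and 20.8 at 144 h in wild type, and at 1124 and 1129 in the 72 h libraries of the time course. The differences were 2.04 ± 0.78, 3.17 ± 0.78 and 4.88 ± 0.74 (SE) with adjusted p = 0.0709, 0.00744 and 3.01e-06, so the one at 96 h missed the threshold although no mutant value lay within the wild-type range. Mutant levels were below those at 72 h at every stage.

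**Figure D2:**
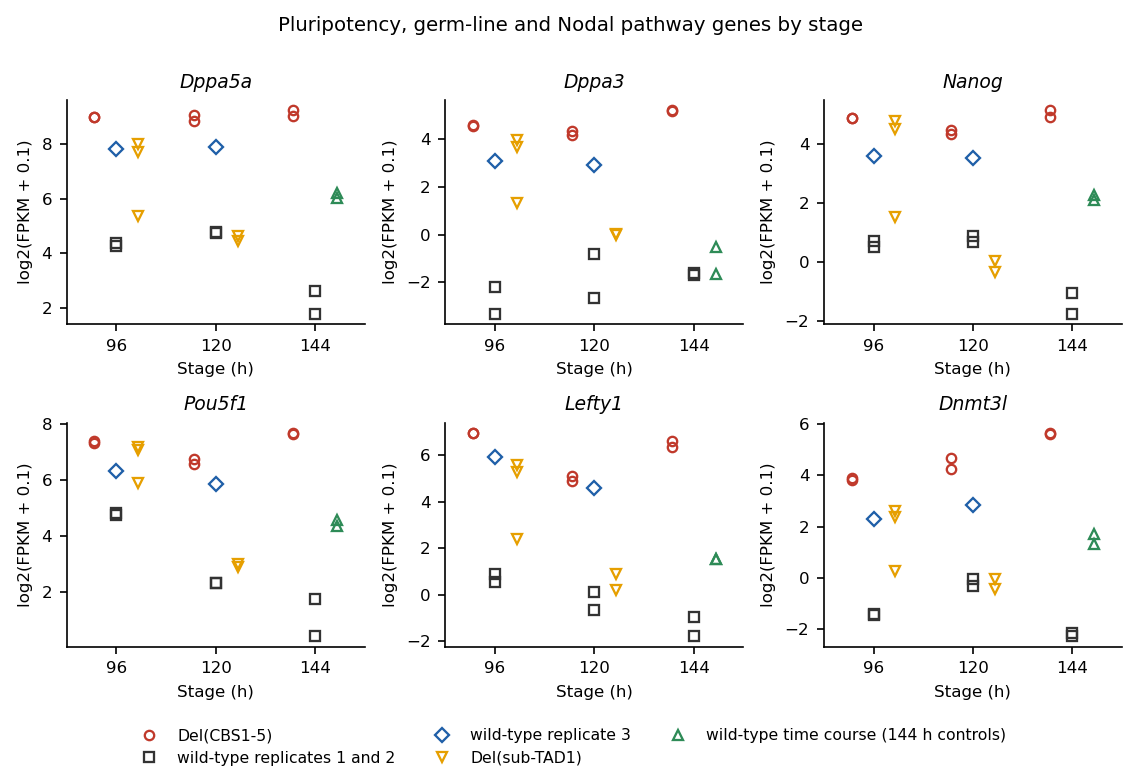
FPKM on a log axis, offset by 0.1, of 6 genes by stage (the x axis, from 96 h to 144 h). Each point is 1 library, with Del(CBS1-5), wild-type replicates 1 and 2, wild-type replicate 3, the time-course libraries of 144 h and the earlier Del(sub-TAD1) libraries marked apart. For Dppa5a, Dppa3 and Nanog the mutants stay high at all stages, and wild-type replicate 3 lies below them and above replicates 1 and 2.

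Genes of Nodal signalling were not counted as a list, and Nodal, a member of the primitive streak list, was singled out after its values were seen. Nodal, the ligand that maintains the epiblast and induces the primitive streak, was at 24.9 and 27.4 FPKM at 96 h, 8.79 and 9.29 at 120 h and 14.9 and 16 at 144 h against 1.15, 0.992 and 9.07 at 96 h, 0.543, 0.382 and 5.02 at 120 h and 0.122, 0.168, 2.87 and 2.37 at 144 h, and its differences were 3.50 ± 0.85, 2.97 ± 0.85 and 4.26 ± 0.80 (SE). Lefty1, a secreted Nodal antagonist and target of the pathway, was at 125 and 125 at 96 h, 30.0 and 34.9 at 120 h and 82.2 and 97.5 at 144 h in the mutants and at 1.36, 1.76 and 60.2 at 96 h, 0.992, 0.535 and 23.9 at 120 h and 0.189, 0.414, 2.79 and 2.83 at 144 h in wild type, with differences of 4.52 ± 1.15, 3.67 ± 1.15 and 6.40 ± 1.09 (SE) and adjusted p = 0.00666, 0.0351 and 1.87e-05. Wild-type replicate 3 was again the high control, at up to 60.2. Lefty2 (4.53, 3.21 and 5.70) and the Nodal co-receptor Tdgf1 (4.12, 3.05 and 5.87) were higher at all 3 stages, and Lefty2, Lefty1, the folate receptor Folr1 (4.45), the threonine dehydrogenase Tdh (4.45) and the sialyltransferase St6galnac2 were the largest rises at 96 h among genes that were not all-or-none.

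Of 9 tested markers of primordial germ cells, 7, 6 and 5 were higher at the 3 stages and none lower, with 7 at 120 h when wild-type replicate 3 was left out. Tfap2c and Prdm14, transcription factors that specify these cells, were higher at every stage (2.84, 2.48 and 2.83 and 2.51, 2.37 and 2.61), whereas Nanos3, an RNA-binding protein of migrating germ cells, was called at 96 h (3.32 ± 0.66 (SE), adjusted p = 0.000759) and not at 120 h or 144 h. The change of its difference between 96 h and 144 h was not called (adjusted p = 0.106). Ddx4, a later germ-cell helicase, was higher at 96 h and 144 h. Dppa3 and Prdm14 also belong to the naive list, and none of these lists marks 1 cell type alone.

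The genes of this paragraph were picked, after their values were seen, for known roles in the germ line and early embryo from the 95 genes whose lowest mutant value exceeded all 55 other libraries. The 95 also held genes of other roles, such as Ube2s, Cops7a and Osgep, and no share of germ-line genes among them was computed. Dnmt3l, a cofactor of de novo DNA methylation in germ cells, was at 14.8 and 14 FPKM at 96 h, 18.8 and 25.5 at 120 h and 50.2 and 49.2 at 144 h in Del(CBS1-5) against 0.27, 0.273 and 4.77 at 96 h, 0.866, 0.709 and 7.1 at 120 h and 0.105, 0.123, 3.13 and 2.4 at 144 h in wild type. Its differences were 4.05 ± 0.92, 3.63 ± 0.92 and 6.0 ± 0.87 (SE) with adjusted p = 0.00263, 0.00923 and 1.54e-06. Tex19.1, which restrains retrotransposons in germ cells, was at 12.8 to 38.7 in the mutants and at most 7.21 elsewhere. The piRNA factors Tdrd12 (6.73 to 18.2 against at most 6.12) and Rnf17 (4.17 to 10.9 against at most 3.55), the transposon repressor Morc1 (5.56 to 10.7 against at most 4.41), Dppa4 (16 to 35.3 against at most 11.8) and Dppa2 (7.52 to 13.4 against at most 5.42) had the same order. Dppa2 and Dppa4 form a dimer that activates genes of the early embryo. Among the others were metallothionein Mt2 (247 to 390 against at most 191) and the small heat-shock protein Hspb1 (26.4 to 39.3 against at most 21.2).

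Because many germ-line genes carry an E-box in a CpG-rich promoter, the 250 bases before the transcription start, from RefSeq on GRCm38.p6, were searched for CACGTG, which is its own reverse complement. Promoters were matched by symbol for 10004 of 15817 genes tested. The motif was in 1002 of them (10%), in 28 of 312 constant higher genes (8.97%), in 11 of 89 constant lower genes (12.4%) and in 10 of the 69 matched genes above all other libraries (14.5%). ATGCAAAT, the octamer bound by Pou5f1 and its relatives, searched on both strands, was in 1.7%, 2.56%, 3.37% and 4.35% of the same sets. A gene with several starts counts if any of its promoters held the motif. For 4 genes, chosen because they lay above all 55 other libraries and hold the E-box, the first promoter listed is shown, with the E-box in capitals. Hormad1 and Stk31 act in meiosis and the germ line, and Fkbp6 in piRNA biogenesis. They lie at chr10:78049592-78049841 (plus strand), chr3:95559427-95559676 (plus), chr6:49395289-49395538 (plus) and chr5:135350045-135350294 (minus).
Dnmt3l: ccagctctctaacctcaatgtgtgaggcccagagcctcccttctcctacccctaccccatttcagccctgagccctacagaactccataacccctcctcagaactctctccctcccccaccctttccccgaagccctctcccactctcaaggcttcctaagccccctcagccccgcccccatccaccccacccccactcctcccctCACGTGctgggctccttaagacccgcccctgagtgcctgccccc
Hormad1: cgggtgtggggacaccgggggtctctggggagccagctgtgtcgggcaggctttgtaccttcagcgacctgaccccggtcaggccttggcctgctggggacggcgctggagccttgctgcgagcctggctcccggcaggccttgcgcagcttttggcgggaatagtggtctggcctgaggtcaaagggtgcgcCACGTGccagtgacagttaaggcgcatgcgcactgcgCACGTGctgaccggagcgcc
Stk31: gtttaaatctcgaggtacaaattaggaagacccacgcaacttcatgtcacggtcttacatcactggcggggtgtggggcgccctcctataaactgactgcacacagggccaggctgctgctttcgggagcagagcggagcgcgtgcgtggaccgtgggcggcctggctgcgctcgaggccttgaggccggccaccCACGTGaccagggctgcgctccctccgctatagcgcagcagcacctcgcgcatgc
Fkbp6: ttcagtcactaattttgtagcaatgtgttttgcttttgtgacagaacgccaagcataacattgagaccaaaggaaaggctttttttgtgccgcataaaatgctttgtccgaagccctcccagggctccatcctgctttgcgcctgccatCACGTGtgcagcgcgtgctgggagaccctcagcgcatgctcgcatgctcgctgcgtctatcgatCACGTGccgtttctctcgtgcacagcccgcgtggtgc
Hormad1 and Fkbp6 held the motif 2 times each. Among other genes above all 55 other libraries, the promoters of the germ-line genes Tex19.1, Sohlh2 and Dmc1 held no E-box. That of Cops7a, named above for another role, held it.

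Stk31, a kinase-like Tudor protein of the male germ line, was at 1.2 and 1.16 FPKM at 96 h, 1.11 and 1.36 at 120 h and 2.28 and 2.77 at 144 h in the mutants and 0 to 0.701 in the controls. Hormad1, a protein of unpaired meiotic chromosome axes, was at 3.55 to 8.11 against 0.0644 to 1.61, and Fkbp6 at 1.62 to 3.46 against 0 to 0.878. Their ranges do not overlap because of how the 3 genes were chosen.

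Del(sub-TAD1) and the mutants made in EmbryoMax cells were in none of the contrasts that chose the 414 constant higher genes. Between these lines, the median log2 difference of the 414 was 1.22 at 96 h, with 387 above 0, and 0.61 at 120 h, with 363 above 0, beside 0.10 and 0.08 over all genes tested. The 122 constant lower genes had medians of -0.24 and -0.35 in the same comparison, with 27 and 14 of them above 0. Wild-type replicate 4 was in none of those contrasts either. It was set against wild-type replicates 1 and 2, which had helped to choose the genes. For the 414 its medians were 0.53 at 96 h and 0.54 at 120 h, with 329 and 342 above 0. Over all genes tested the medians were 0.12 and 0.08. For the 122 they were -0.17 and -0.06, with 47 and 54 above 0.

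The constant lower class was smaller and its differences milder. Hes5, a Notch effector of neural progenitors, was at 3.87 and 3.92 FPKM at 96 h, 3.59 and 3.1 at 120 h and 4.68 and 4.13 at 144 h in the mutants against 10.2, 12.4 and 12.8 at 96 h, 10.6, 10.7 and 8.87 at 120 h and 27.5, 23.5, 7.43 and 8.15 at 144 h in wild type, with differences of -1.57 ± 0.52, -1.56 ± 0.52 and -1.66 ± 0.49 (SE). Controls lay above the mutants in every library. H2-Q7, a nonclassical class I MHC gene, was at 0.251 to 0.787 in the mutants, 0.623 and 0.467 in wild-type replicate 3 and 2.84 to 4.05 in the other controls, and Hemk1, a methyltransferase, was at 2.02 to 2.98, 2.07 and 2.1 and 6.47 to 9.43. For these 2 genes wild-type replicate 3 sat within or beside the mutant range. MHC genes have close copies, which cufflinks may split between loci. Pla2g7, Il18, Pantr1 and Etaa1os completed the largest constant falls that were not all-or-none, and Calcoco2, Lefty1, Dnmt3l, St6galnac2, Utf1, Tex19.1, Rpl10l and Lefty2 the largest constant rises.

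For several early-embryo genes the mutant difference was largest at 144 h. Zscan4d, a marker of the transient totipotent-like state of mES cells, was at 5.03 and 4.34 FPKM in the mutants at 144 h and 0.056, 0.022, 0.0541 and 0.126 in wild type (4.90 ± 0.46 (SE), adjusted p = 2.36e-10), and its difference was larger at 144 h than at 96 h by 4.43 (adjusted p = 1.22e-05). Zscan4 genes are near-identical copies, and which of them was read is uncertain. Pou3f1 (Oct6), a primed epiblast factor, was at 3.25 and 4.17 against 0.288, 0.227, 0.294 and 0.252, a gain of 3.13 over 120 h (adjusted p = 7.52e-09). Stra8, which starts meiosis, was at 12 and 11.9 against 0.302, 0.359, 0.658 and 1.4 (4.15 ± 0.52 (SE), adjusted p = 1.2e-07), after a smaller difference at 120 h (2.36), and Rhox6, a homeobox gene of the germ line and placenta, at 10.5 and 8.88 against 0.0465, 0.165, 0.203 and 0.0786 (5.51 ± 0.57 (SE), adjusted p = 2.57e-09). Dnmt3b, a de novo methyltransferase of the primed epiblast, was at 74 and 76 against 15.3, 16, 23.4 and 23.1 and was not called before 144 h. In each of these genes both mutant values at 144 h exceeded the 4 controls.

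For genes of the growing posterior end at 144 h the counts differed with the choice of controls. Of 13 tested genes of presomitic mesoderm, the tissue that segments into somites, 3 were lower at 96 h, none was called at 120 h and 7 were lower at 144 h (median -1.36), and of 11 genes of neuro-mesodermal progenitors 6 were lower at 144 h (median -1.28). With the 2 controls outside the time course as the 144 h group, 5 presomitic genes were lower and 1 higher (median -0.14) and 1 progenitor gene was lower (median -0.28). Of the 15818 genes tested, 3322 were higher and 1769 lower at 144 h with these 2 controls. List counts with the controls outside the time course, here and below, are to be read beside these. With time-course controls at all stages, 10 and 9 were lower. The 2 pairs of controls thus gave different counts for these lists. Of 12 mitochondrial mRNAs 8 were lower at 144 h, and 2 with the controls outside the time course, and their part in the other results at 144 h was not tested.

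Tbx6, the factor that commits progenitors to presomitic mesoderm, was at 0.169 and 0.572 FPKM in the mutants at 144 h, at 0.503 and 1.01 in the controls outside the time course and at 13.9 and 13.1 in those of it (-2.97 ± 0.67 (SE), adjusted p = 0.000653). One mutant value thus lay between the low pair of controls. Its difference fell by 3.47 between 120 h and 144 h on the log2 scale (adjusted p = 0.0183). Msgn1, a Tbx6 and Wnt target of the same tissue, was listed at 0 in both mutants and in the controls outside the time course, and was at 5.39 and 5.19 in the time course. T (brachyury), which maintains the progenitors, was at 5.92 and 7.42 against 9.69, 10.1, 37.2 and 35.9, and the Wnt ligand Wnt3a at 0.203 and 0.468 against 0.5, 0.751, 8.67 and 10.1 (-2.65 ± 0.64 (SE), adjusted p = 0.00136). For T and Wnt3a the mutants lay below all 4 controls, the nearer pair included.

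Cdx2, which drives trunk elongation and posterior Hox expression, was at 58 and 57 FPKM at 96 h, 28.9 and 26.6 at 120 h and 5.41 and 7.71 at 144 h in Del(CBS1-5) and at 59.5, 65.2 and 76.1 at 96 h, 54.3, 49.7 and 54.3 at 120 h and 22.2, 25.3, 62.1 and 59.5 at 144 h in wild type. The differences were -0.21 ± 0.38, -0.92 ± 0.38 and -2.54 ± 0.36 (SE) with adjusted p = 0.827, 0.109 and 8.14e-07, and the change between 120 h and 144 h was -1.61 ± 0.52 (SE), adjusted p = 0.0393. The mutants lay below the controls of both pairs at 144 h. Of 15 tested Wnt targets and feedback genes 9 were lower and 1 higher at 144 h, and 7 and 3 with the controls outside the time course. Sp5, a transcriptional target of Wnt signalling, was at 0.6 and 0.528 against 1.24, 1.27, 7.43 and 8.58 (-2.32 ± 0.48 (SE), adjusted p = 0.000246), while the Wnt inhibitor Dkk1 was higher (2.19 ± 0.41 (SE), adjusted p = 5.94e-05).

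Most spinal cord genes were lower at 144 h whichever controls were used. Of 19 tested genes of spinal cord and neurons, 1 was higher and 2 lower at 96 h, 5 were lower at 120 h and 14 at 144 h (median -1.27), with 14 lower against the controls outside the time course alone and 10 with time-course controls. Nkx6-1, a ventral progenitor factor of the neural tube, was at 0.745 and 0.932 FPKM in the mutants and 12.8, 10.6, 5.75 and 5.43 in wild type at 144 h (-3.13 ± 0.39 (SE), adjusted p = 1.04e-07). Dbx1, of intermediate progenitors, was at 1.34 and 0.884 against 26.6, 25.8, 5.6 and 8.07 (-3.49 ± 0.50 (SE), adjusted p = 1.21e-06). Olig2, of motor neuron progenitors, was at 2.28 and 2.76 against 19.13, 14.7, 5.13 and 5.14, and Neurog2, which starts neuronal differentiation, at 0.998 and 1.06 against 14.4, 10.9, 3.82 and 3.16. In all 4 genes the mutants lay below both pairs of controls, and the pair outside the time course was the higher. Fewer neural cells and less RNA of these genes per cell cannot be told apart in bulk libraries, here and in the tissues below.

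**Figure D3:**
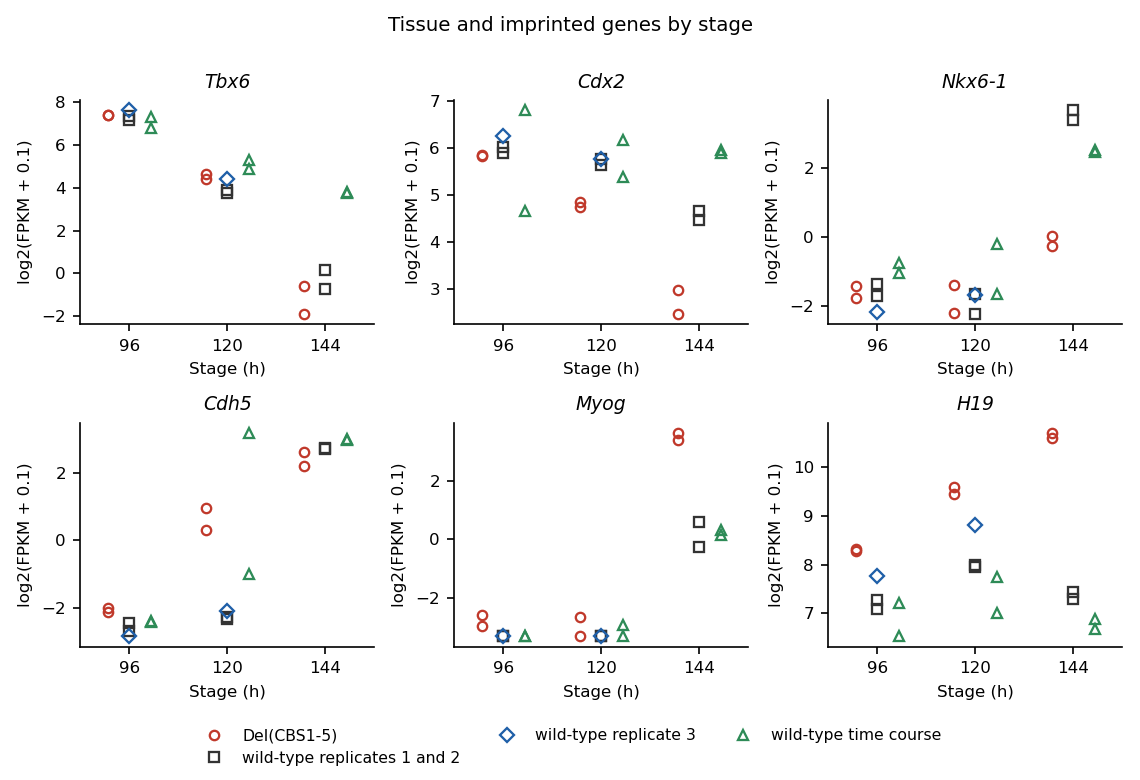
FPKM on a log axis, offset by 0.1, of 6 genes by stage, from 96 h to 144 h, with Del(CBS1-5), wild-type controls outside the time course and wild-type time-course libraries marked apart, 1 point a library. At 144 h the mutants lie below all controls for Cdx2 and Nkx6-1 and above all for Myog and H19, Tbx6 differs between the 2 pairs of controls, and the mutants lie above the controls outside the time course for Cdh5 at 120 h and below all controls at 144 h.

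Most endothelial genes were higher in the mutants than in the controls outside the time course at 120 h. Of 17 tested genes of endothelium, the lining of blood vessels, 1 was higher at 96 h, 14 at 120 h (median 2.05) and 1 at 144 h, where 1 was lower. The difference shrank between 120 h and 144 h in 7. Cdh5, the adhesion molecule of endothelial junctions, was at 1.87 and 1.13 FPKM at 120 h against 0.0987, 0.107 and 0.133 (2.87 ± 0.63 (SE), adjusted p = 0.00307) and at 4.49 and 6.04 against 6.56, 6.4, 8 and 7.8 at 144 h, and its difference fell by 3.32 on the log2 scale (adjusted p = 0.0111). Kdr, the VEGF receptor of vessel progenitors, was at 3.39 and 2.53 against 0.204, 0.229 and 0.564 (2.90 ± 0.77 (SE), adjusted p = 0.0124), and Emcn (3.14), Pecam1 (2.94) and Cldn5 (2.93) were higher too. At 120 h the time-course libraries, which were not controls there, held 9.06 and 0.404 of Cdh5 and 13.3 and 0.577 of Kdr, 1 above the mutants and 1 below. Against them 1 endothelial gene was higher and 2 lower at 120 h, so this rise rested on the controls outside the time course. The count at 120 h was also 14 without wild-type replicate 3. The 13 blood genes summed to at most 3.53 FPKM in any library compared and none was tested.

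Endoderm genes were called in 1 direction at 120 h and in both at 144 h. Of 18 tested genes, none was called at 96 h, 8 were higher at 120 h (median 1.59), and 5 were higher and 8 lower at 144 h. With wild-type replicate 3 left out, 10 were higher at 120 h. Krt8, an epithelial keratin, was at 16.4 and 14.9 FPKM at 120 h against 2.36, 2.11 and 9.67 (2.06 ± 0.55 (SE), adjusted p = 0.0131). At 144 h the endoderm factors Foxa2 (-2.09 ± 0.55 (SE), adjusted p = 0.00316), Sox17 (-2.06 ± 0.68 (SE), adjusted p = 0.0167) and Gata6 (-2.06 ± 0.66 (SE), adjusted p = 0.014) were lower, and the trypsin inhibitor Spink1 (4.49 ± 0.71 (SE), adjusted p = 5.59e-06) was higher. Cdh1 and Epcam, which this list shares with pluripotent cells, were higher at both stages. With time-course controls 6 endoderm genes were lower at 96 h, 3 were higher and 1 lower at 120 h, and 3 were higher and 7 lower at 144 h. Of all 15818 genes tested, 4063 were lower at 96 h with these controls. At 120 h 3957 were higher and 4290 lower, and at 144 h 4115 and 2745.

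In mesoderm derivatives single factors stood out. Myog, the regulator of skeletal muscle differentiation, was at 12.4 and 10.5 FPKM in the mutants at 144 h against 0.739, 1.39, 1.16 and 0.999 (3.32 ± 0.20 (SE), adjusted p = 4.73e-15), a gain of 2.99 over 120 h. Of 17 tested somite genes 3 were higher and 4 lower at 144 h, the lower ones Pax1 (-1.53), Nkx3-2 (-1.30), Pax7 (-1.26) and Foxc2 (-1.10), where Pax1 and Nkx3-2 mark the sclerotome. These counts are near the shares of all genes at 144 h (22.7% higher and 12.8% lower). Of 11 genes of intermediate and lateral mesoderm 6 were higher and 1 lower, led by Tbx4 (3.27), a hindlimb field factor, Tbx3 (3.10), Wt1 (2.84) and Tbx2 (2.69), while Foxf1 was lower (-2.41). Tbx3 also belongs to the naive pluripotency list. Fibin, a secreted factor of the lateral plate, was at 17.6 and 22.2 against 0.449, 0.419, 0.895 and 0.569 (4.91 ± 0.27 (SE), adjusted p = 1.51e-16).

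Nepn, a gene of midgut endoderm and hypochord, was lower at 144 h, at 1.43 and 1.71 FPKM against 40.6, 44.6, 44.4 and 26.3 (-4.52 ± 0.85 (SE), adjusted p = 7.05e-05). Libraries of 1 condition differed as much, since the time course at 120 h held 40.1 and 0.81. Of 16 tested Hox genes of groups 1 to 7 outside HoxD, 1 was lower at 96 h (Hoxa7, all-or-none and also at 0 in wild-type replicate 3), none was called at 120 h and 6 were lower at 144 h, such as Hoxb1 at 11.7 and 12.6 against 18, 18.9, 38.6 and 38.1 (-1.12 ± 0.23 (SE), adjusted p = 0.000223). Of 9 of groups 8 to 13, 1 was higher at 120 h (Hoxa11, 2.45) and 1 lower at 144 h (Hoxb9, -1.56). Anterior and posterior groups of HoxA, HoxB and HoxC were therefore called in few members before 144 h. The summed FPKM of groups 8 to 13 lay below all controls at each stage. It was 66.9 to 72.3 against 78.7 to 106 at 96 h and 131 to 139 against 213 to 300 at 144 h. That of groups 1 to 7 was within the control range at 96 h (374 to 376 against 342 to 390). It was below all controls at 120 h (274 to 285 against 324 to 368) and 144 h (171 to 180 against 302 to 329). These sums were not tested.

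Imprinted genes, which are expressed from 1 parental allele, differed by parental class in their counts. Of 15 tested maternally expressed genes 2 were higher and 1 lower at 96 h, 6 and 1 at 120 h and 8 and 1 at 144 h, with medians of 0.2, 0.78 and 1.38. Of 22 paternally expressed genes none was higher and 8 lower at 96 h, none and 3 at 120 h, and 1 and 5 at 144 h, with medians of -0.51, -0.44 and -0.06. Over all genes tested, 10.5% were higher and 5.29% lower at 96 h, 6.75% and 4.27% at 120 h, and 22.7% and 12.8% at 144 h. The counts of maternally expressed genes at 96 h were near these shares. Without wild-type replicate 3, 1 paternally expressed gene was higher and 16 lower at 96 h, 3 and 12 at 120 h and 4 and 6 at 144 h, and 6 maternally expressed genes were higher and 3 lower at 96 h and 7 and 3 at 120 h. The 2 classes were not tested against each other.

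H19, a maternally expressed growth-restraining RNA on chromosome 7, was at 321 and 309 FPKM at 96 h, 775 and 692 at 120 h and 1549 and 1663 at 144 h in Del(CBS1-5). In wild type it was at 154, 136 and 216 at 96 h, 245, 254 and 449 at 120 h and 173, 157, 103 and 118 at 144 h, and the groups did not overlap at any stage. The differences were 0.93 ± 0.24, 1.27 ± 0.24 and 3.57 ± 0.23 (SE) with adjusted p = 0.00845, 0.000893 and 2.04e-14, larger at 144 h than at 120 h by 2.30 ± 0.34 (SE), adjusted p = 9.88e-06. Phlda2, a maternally expressed growth inhibitor of the placenta, was at 15 and 12.3 against 0.133, 0.625, 2.03 and 1.01 at 144 h (4.11 ± 0.59 (SE), adjusted p = 1.28e-06), and Cdkn1c, a cyclin-dependent kinase inhibitor, was higher at 120 h (1.43) and 144 h (1.97). The paternally expressed Ndn, a neuronal MAGE protein, was at 7.85 and 7.84 at 96 h, 10.6 and 8.95 at 120 h and 11.2 and 12.6 at 144 h in the mutants against 17, 18.5 and 15.3 at 96 h, 26, 23.2 and 17.3 at 120 h and 37.2, 35.4, 50.03 and 50.5 at 144 h, lower at each stage (-1.10 ± 0.14, -1.16 ± 0.14 and -1.84 ± 0.14 (SE)). Ndn was lower still in Del(sub-TAD1), at 2.99 to 4.21, and at 15.6 and 20.2 in wild-type replicate 4. Dlk1, a paternally expressed Notch-like growth factor, was higher at 144 h, at 130.0 and 134 against 37.7, 30.8, 36.8 and 39.7.

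**Figure D4:**
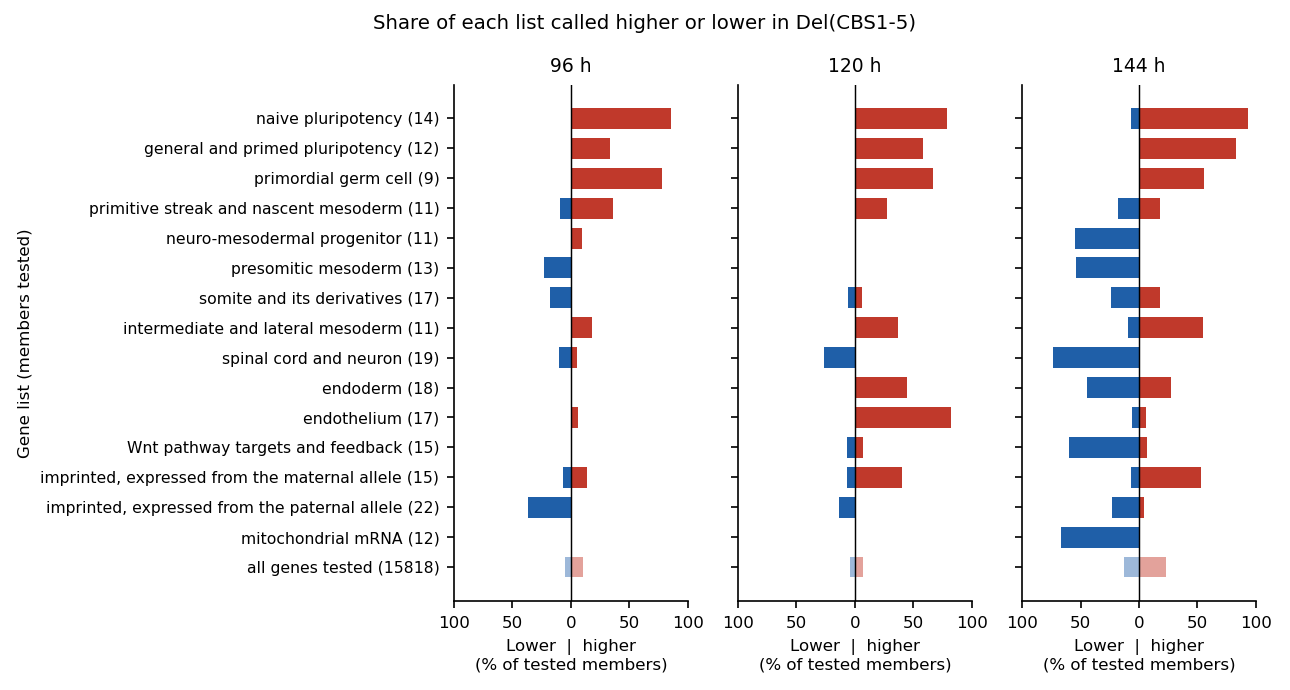
Percent of the tested members of 15 gene lists, and of all genes tested, that were higher (right) or lower (left) in Del(CBS1-5) at each stage, at an adjusted p under 0.05 (limma). Naive pluripotency genes are higher at all 3 stages (12, 11 and 13 of 14), endothelial genes at 120 h (14 of 17), and spinal cord genes are lower at 144 h (14 of 19).

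Several of the largest changes between stages fell on genes with near-identical copies. Tpm3-rs7, a retrocopy of the tropomyosin gene Tpm3 on chromosome 14, was at 52.9 and 53.6 FPKM at 96 h, 47.2 and 47.1 at 120 h and 1.04 and 0.884 at 144 h in the mutants and at 105, 107 and 52.8 at 96 h, 94.9, 92.9 and 44 at 120 h and 62.9, 60.9, 91.4 and 86.6 at 144 h in wild type. It was also at 0.808 and 0.981 in wild-type replicate 4 and at 0.798 to 1.08 in Del(sub-TAD1) at 96 h, but at 45.8 to 47.4 in that line at 120 h. Eno1b, a copy of the enolase gene Eno1 on chromosome 18, was at 402 and 410.3 at 96 h, 368 and 345 at 120 h and 0.367 and 0.492 at 144 h against 759.6, 768 and 387 at 96 h, 609.7, 609 and 325 at 120 h and 86.8, 85.5, 160.4 and 150.2 at 144 h. At 96 h and 120 h both copies were at about the same level in the mutants and wild-type replicate 3, below replicates 1 and 2. Gstp2, Ndufs5 and Eif3j2, named by the same rule, also have close copies. The levels of all these genes are uncertain, because reads may be split between copies, and how they were assigned was not tested.

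The largest fitted differences were mostly all-or-none. Of genes called with an absolute log2 difference over 5, 25 of 27 at 96 h, 15 of 17 at 120 h and 68 of 115 at 144 h were all-or-none, against 2089 of all genes tested (13.2%). At 96 h these included mt-Tl1, Zfp296, Mfap4 and Eng among the rises and Ndufb5, Rad9a, Mllt11 and Mbd5 among the falls. Eng, an endothelial TGF-beta co-receptor, was at 4.14 and 3.92 FPKM in the mutants at 96 h and listed at 0 in wild type, yet listed at 0 in the mutants at 120 h. Rb1, the retinoblastoma tumour suppressor, was listed at 0 in both mutants at 120 h and at 8.74, 8.66 and 7.6 in wild type, but 1 wild-type library at 144 h was also at 0. At 120 h Mea1, n-R5s193, Tuba4a and Fabp3 and the falls of Atat1, Zdhhc2 and Tnni3 were of this kind, and at 144 h Pip4p1, Slc7a7, Hsf2bp, Oip5, Fbxw9, Ears2 and Wdfy1. Tuba4a, an alpha tubulin, was at 12.2 and 5.5 and 17.8 and 29.8 in the mutants at 120 h and 144 h and listed at 0 in all controls of these stages, whereas at 96 h every library held between 6.29 and 42.5. No fold is given for these genes because 1 side was listed at 0.

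Among rises that lasted through all 3 stages, Gm42047, a lincRNA, was at 65.5 to 79.8 FPKM in the mutants and 83.3 and 103 in wild-type replicate 3, and at most 0.0962 in the other controls. Apoa2, an apolipoprotein, was at 6.28 to 11, 4.7 and 2.65 and at most 0.157 in the same order, and Fabp3, a fatty-acid-binding protein, at 7.79 to 9.81 in the mutants and 9.17 and 0 in replicate 3. Del(sub-TAD1) held 33.6 to 85.5 of Gm42047, 2.06 to 7.1 of Apoa2 and 6.66 to 20.5 of Fabp3, and wild-type replicate 4 held 61.6 and 73.2, 1.52 and 1.25 and 6.53 and 0. Fabp3 was thus at 0 in some of the libraries in which the other 2 genes were read.

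The mutant difference of a few genes changed between 96 h and 120 h. Exo1, a DNA repair exonuclease, was at 12.5 and 12.5 FPKM in the mutants at 96 h against 67.1, 70.5 and 60.3 (-2.38 ± 0.38 (SE), adjusted p = 5.08e-05), and its difference rose by 2.66 to 120 h (adjusted p = 0.0172), where the mutants were at 44.7 and 51 and wild type at 66.3, 67.8 and 13.5, with the low value in replicate 3. Scube2, a secreted Hedgehog carrier, was higher at 96 h (1.30 ± 0.41 (SE), adjusted p = 0.0289) and lower at 120 h (-2.06 ± 0.41 (SE), adjusted p = 0.00138). Without wild-type replicate 3, 150 genes changed upward and 235 downward between these stages in place of 19 and 20, 19 of each direction shared. The count of early stage-dependent genes thus rested on that library.

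To place each library on the wild-type time course, its expression was matched to an hourly interpolation of that course over 1000 genes. Del(CBS1-5) libraries matched 91 h and 90 h at 96 h, 125 h and 115 h at 120 h, and 137 h and 138 h at 144 h. Wild-type controls matched 101 h, 100 h and 92 h, then 126 h, 126 h and 125 h, and 157 h and 158 h for the 2 at 144 h outside the course. The mean differences were -7.17 h (exact two-sided permutation test, p = 0.2), -5.67 h (p = 0.2) and -20.0 h (p = 0.333). The smallest p that 2 against 3 libraries can give is 0.1, and 2 against 2 0.333, so no difference in age could pass the threshold. At its best-matching hour every library still differed from the time course by a root-mean-square of 2.08 to 2.58 log2 units.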

How the data were processed

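Stembryo RNA was sequenced as stranded poly-A libraries with paired reads of 75 bases. Per the labels and the study's methods, the authors trimmed reads with cutadapt 1.16, aligned them to mm10 with STAR 2.7.7a and computed FPKM with cufflinks 2.2.1 on an annotation made from Ensembl. The deposited FPKM values are scaled to mapped fragments and transcript length and are not counts, so no count test was run on them. Here log2(FPKM + 0.1) was fitted with limma 3.58.1 (R 4.3.3) in 1 model with a mean per condition over all 61 libraries. Genes with a mean of at least 1 FPKM in at least 1 of the 6 groups compared were tested, 15818 of 55052. The contrasts were Del(CBS1-5) minus wild type at each stage and the differences of these between stages. Values on the log2(FPKM + 0.1) scale understate the change of low genes. The fit was tested on simulated data.

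The members and gene lists were chosen with earlier results of these data known. Genes were named as follows: the 8 highest of each class low throughout in 1 genotype, the 5 largest rises and falls per stage and per difference between stages among called genes with a symbol other than a clone name, the 8 largest in each constant class, and 2 to 4 of the largest called members per list. The same rule without all-or-none genes, the search for genes outside the range of all 55 other libraries, and any further gene, such as Pou5f1, Nodal, Zscan4d, Hormad1 and Exo1, were chosen after their values were seen. A gene that the rule names at 120 h is not reported here. Alternatives changed the pseudocount, filter, scaling, libraries and controls. A reference genome and protein sequences were not used here.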

Additional observations from a re-analysis of the deposited data

Results flagged for a closer look

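In the 4 wild-type libraries at 144 h, the named genes were checked for a library far from its fellows. The chance rate of this check, about 1 in 20, holds only for 4 libraries that vary alike. These 4 fell into pairs, as described above, and several of the flagged genes were all-or-none. That rate therefore does not apply here, and the count below cannot be set against it. In 10 of the named genes 1 library stood apart. It was high for Snord104 (2130 FPKM), Gm22951 (33.2), Snora17 (22.4), n-R5s193 (28.3), Atat1 (20.6), Wsb2 (6.99), Dppa3 (0.597) and Gm42047 (0.00963), and it was listed at 0 for Rb1 (0) and Morn2 (0).

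The difference between Del(CBS1-5) and wild type changed with stage in 39 genes between 96 h and 120 h, in 1725 between 120 h and 144 h and in 2574 between 96 h and 144 h (limma, adjusted p under 0.05). Between 96 h and 120 h the largest log2 changes upward were Arhgap44 (6.31), Tuba4a (4.88), Mbd5 (4.44), H2-Q5 (2.72) and Exo1 (2.66), and downward Zdhhc2 (-6.03), Zfp296 (-5.42), Eng (-5.37), Scube2 (-3.36) and Slc26a6 (-2.21). Between 120 h and 144 h they were Pip4p1 (8.61), Leng1 (8.61), Slc7a7 (7.31), Hsf2bp (7.17) and Wdr5b (6.29), and Oip5 (-7.38), Eno1b (-7.31), Wdfy1 (-7.18), Tgm2 (-5.94) and Ears2 (-5.66). Between 96 h and 144 h they were Pip4p1 (11.29), Mbd5 (10.32), Mea1 (9.60), Rad9a (8.05) and Slc7a7 (7.31), and Fbxw9 (-11.5), Dnajc19 (-10.8), Morn2 (-9.81), Oip5 (-7.78) and Wdfy1 (-7.76). Exo1, Scube2, Slc26a6 and Eno1b apart, these genes were listed at 0 in some libraries and at 1 FPKM or more in others of the same condition, or never between 0 and 1 FPKM, so the sizes depend on the added 0.1 FPKM and are no folds.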

How the results depend on the processing

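Of 362 recomputed counts 269 stayed within 1.5 times the value reported and 93 did not. Of 6865 values of named genes 6230 kept direction and call, 631 kept the direction and lost the call, and 4 reversed, all with time-course controls at every stage: Gm37832 at 96 h (0.76), Gstp2 between 120 h and 144 h (-3.14), Ndufs5 between 120 h and 144 h (-1.10) and Gstp2 between 96 h and 144 h (-2.25). The 54 recomputed age differences kept their direction. With time-course controls 4376 genes were higher and 4063 lower at 96 h, 3957 and 4290 at 120 h, 322, 6705 and 7304 changed between stages, 844 were constant lower, and 9 and 32 were low throughout in the mutant and in wild type. With only the 16 libraries in the fit, 325 and 175 were called at 96 h, 243 and 157 at 120 h, 737 and 1141 changed from 120 h and 96 h to 144 h, and 52 and 21 were constant. Without wild-type replicate 3 the counts were 2733, 1355, 2019 and 1441, 385 between 96 h and 120 h, 737 and 258 constant, and 11 low throughout in wild type. Quantile normalization gave 1773 lower at 96 h, 1490 lower at 120 h, 173 changed between these stages, 322 constant lower and 2 low in wild type. With no filter 1693 genes were higher at 120 h and 161 changed between 96 h and 120 h, a count that was 24 with a filter over the 16 libraries and 11 without all-or-none genes.

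With a replicate block 2587 and 1274 genes were called at 96 h, 1909 and 1343 at 120 h, 407 changed between them, and 725 and 241 were constant. Deviations of same-numbered libraries correlated at -0.084 to 0.061, so the numbers do not pair the samples. The block holds wild-type replicate 3 apart, since no mutant carries that number.

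With 1 library left out at a time, 651 to 2627 genes were higher and 263 to 1268 lower at 96 h, 272 to 1843 and 141 to 1351 at 120 h, and 2445 to 3842 and 1206 to 2248 at 144 h. Between stages 16 to 303, 785 to 2524 and 1295 to 3357 genes changed, 109 to 606 were constant higher and 34 to 195 constant lower, and the low classes held 10 to 19 and 3 to 6 genes. The age differences ranged from -10.0 h to -5.5 h, from -10.67 h to -0.67 h and from -28.5 h to -19.5 h. At 96 h and 120 h every library moved its own stage's counts by over 1.5 times. Wild-type replicate 3 raised them when left out (2627 and 1268 at 96 h, 1843 and 1351 at 120 h). Leaving out wild-type replicate 1 or 2 gave 769 and 367 or 777 and 393 at 96 h and 426 and 223 or 381 and 213 at 120 h, and leaving out mutant replicate 1 or 2 gave 651 and 291 or 662 and 263 at 96 h and 368 and 141 or 272 and 182 at 120 h. A lone mutant library is assumed to vary like the other groups. At 144 h, leaving out mutant replicate 1 took the lower count to 1206. Depth of 15.1 M to 27.5 M fragments limits what is read below about 0.1 FPKM.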

Other observations

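Over all genes tested, 10.5% were higher and 5.29% lower at 96 h, 6.75% and 4.27% at 120 h, and 22.7% and 12.8% at 144 h, and the counts of this section are to be read beside these shares. Of 12 tested p53 targets, 6 were higher at 96 h, 1 was higher and 1 lower at 120 h, and 4 were higher and 1 lower at 144 h. Perp, a desmosomal p53 target, led at 96 h (2.28 ± 0.62 (SE), adjusted p = 0.0101) and 120 h (2.23 ± 0.62 (SE), adjusted p = 0.0166). Of 15 tested genes of hypoxia and glycolysis, 1 was higher and 3 lower at 96 h, 2 and 1 at 120 h, and 4 and 2 at 144 h, at 120 h and 144 h near the shares of all genes, with the glucose transporter Slc2a1 lower at each stage (-0.86, -0.73 and -0.45) and Ndrg1 higher at each (1.35, 1.15 and 0.91). Of 20 tested genes of FGF and retinoic acid signalling, 4 were higher and 4 lower at 144 h, against 10 and 3 with the 2 controls outside the time course. The first pair is near the shares of all genes. With the 2 controls outside the time course, 3322 of all 15818 genes tested were higher and 1769 lower at 144 h. They included Fgf4 (3.41 ± 0.62 (SE), adjusted p = 4.91e-05), a ligand of the epiblast, and Fgf17 (-1.81 ± 0.67 (SE), adjusted p = 0.0343), a ligand of the tailbud.

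Of 11 tested genes of the primitive streak, 4 were higher and 1 lower at 96 h, 3 and none at 120 h and 2 and 2 at 144 h. Eomes, a T-box factor of streak and trophoblast, was higher at each stage (2.40, 2.39 and 2.34). Of 11 extra-embryonic genes 2, 3 and 3 were higher and 2 lower at 144 h, the higher ones at 96 h being Tfap2c and Eomes, which other lists hold too. Neural crest genes were called in 1 higher and 1 lower at 96 h, 1 higher at 120 h and 2 higher at 144 h of 5, notochord genes in 1 higher and 3 lower at 144 h of 6, and cardiac genes in 1 higher at 96 h and 1 lower at 144 h of 12. Of 12 mitochondrial mRNAs 8 were lower at 144 h, where mt-Co1 was at 943 and 819 FPKM against 1255, 1824, 2978 and 4195.

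All libraries compared expressed Y-linked genes. Ddx3y was at 5.59 to 8.89 FPKM in Del(CBS1-5) and 4.38 to 12.6 in wild type, Uty was higher at 144 h (0.55 ± 0.13 (SE), adjusted p = 0.0015), and Xist, the RNA of the inactive X chromosome, was too low to be tested. Of 2 tested genes of X inactivation, Ftx was higher at 144 h (0.65 ± 0.24 (SE), adjusted p = 0.0376).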
